A study of Glycine max with 60 samples.

Results

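Developing seeds of the soybean line 3mlpa were compared between stage 3 (S3, seeds 6 to 8 mm long) and stage 2 (S2, seeds 4 to 6 mm long). The comparison used the 3 RNA-Seq libraries labelled 3mlpa at S3 and the 3 labelled 3mlpa at S2, so 6 of the 60 libraries of the series. 3mlpa is a low phytic acid line that carries the triple mutation mips1/mrp-l/mrp-n, and both stages carried all of these mutations. Its non-mutant sister line 3MWT, which came from the same cross, was sampled at the same seed lengths in 3 libraries per stage. It served for the comparison of the same step without the mutations. The paper describes 3mlpa and 3MWT as recombinant inbred lines, not near-isogenic ones. Effects of the mutations and of other loci that differ between these lines cannot be told apart. The full series also holds the lines 1mlpa and 1MWT and the stages S1 (2 to 4 mm), S4 (8 to 10 mm) and S5 (10 to 12 mm). Plants were grown in growth chambers, and whole seeds were sampled by length, so embryo, endosperm and seed coat were measured together. The paper states that seeds of each line were sampled in triplicate. The sources do not say whether the 3 libraries of a group came from separate plants. Unless fewer libraries are named, p-values rest on the spread between libraries within groups, estimated over the 60 libraries. That spread may be technical or between seeds of the same plants. The 3mlpa and 3MWT libraries are labelled as re-analyzed from earlier work.

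A soybean seed first builds its embryo by cell division and then fills the cotyledons with reserves. During filling the storage globulins glycinin and beta-conglycinin collect in protein storage vacuoles, triacylglycerol is packed into oil bodies coated with oleosins, and protease inhibitors and lectins accumulate beside them. In Arabidopsis the transition to filling is controlled by the B3 and bZIP factors ABI3, FUS3, LEC2 and ABI5, the CCAAT-binding subunits LEC1 and L1L, and the oil regulator WRI1. Phytic acid, the phosphate store of the seed, is made from myo-inositol by a route that starts with MIPS1 and needs the MRP transporters.

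The 6 libraries held between 24552447 and 32658413 counted reads each, within the 17359192 to 42800413 of the 60 libraries. S3 replicate 1 stood apart from the other S3 libraries. Its log2 CPM (TMM-normalized; read counts scaled to a common library size) over 40517 genes correlated with S3 replicates 2 and 3 at r = 0.9631 and 0.9654, and with the 3 S2 libraries at r = 0.9664 to 0.9713, while S3 replicates 2 and 3 correlated at r = 0.9848. The 10 genes with the most reads took 4.065% of its reads, against 10.499% and 9.174% in S3 replicates 2 and 3 and 2.936% to 3.21% in the S2 libraries. On the line drawn from the mean S1 profile (0) to the mean S4 profile (1) of 3mlpa, to which no S3 or S2 library contributed, S3 replicate 1 was at 0.736, between replicates 2 (0.721) and 3 (0.748), and the S2 libraries were at 0.36 to 0.383. On this line S3 replicate 1 thus lay with the other S3 libraries. Results are given with and without it.

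The genes hit by the mutations were not called between the stages. MIPS1 (Glyma.11G238800), the synthase that makes inositol phosphate from glucose 6-phosphate, was at 2930, 1960 and 2580 CPM at S3 and at 1540, 1610 and 1760 CPM at S2, with a log2 difference of 0.61 (SE 0.25, adjusted p = 0.093). MRP-N (Glyma.03G167800), an ABC transporter gene, was at 28.2, 52.3 and 59.3 CPM at S3 and 27.6, 29.0 and 30.7 CPM at S2 (log2 fold change 0.68 ± 0.23 SE, adjusted p = 0.0308). MRP-L (Glyma.19G169000) was at 48.7, 54.3 and 59.7 CPM at S3 and 41.2, 47.6 and 41.6 CPM at S2 (log2 fold change 0.32 ± 0.16 SE, adjusted p = 0.176). All S3 values of MIPS1 and MRP-L lay above the S2 values, and S3 replicate 1 lay within the S2 range for MRP-N. The transcripts of these genes were measured in mutant seeds at both stages, so their levels do not check the labels.

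At S3 the 3mlpa seeds had more transcripts of seed storage, oil body and late embryogenesis abundant (LEA) proteins and of protease inhibitors than at S2. The genes lower at S3 were fewer and of varied function. By edgeR's quasi-likelihood test 1592 of 40517 genes (3.93%) were called, which needed a log2 fold change beyond 1 in either direction and a Benjamini-Hochberg adjusted p under 0.01. Of these, 932 (2.3%) were higher at S3, with a median fold of 3.27, and 660 (1.63%) were lower, with a median fold of 2.98. Changes beyond 4-fold were found for 362 higher and 187 lower genes, and beyond 16-fold for 59 and 22. Groups did not overlap for 784 of the 932 and 658 of the 660 genes. The share over all genes tested was not counted. Genes called for a large change tend not to overlap, so such counts, here and for the lists below, are a description and no separate support. The summed TMM-normalized CPM of the higher genes, in percent of the nominal CPM total, was 5.91%, 19.1% and 16.4% in S3 replicates 1, 2 and 3. In the S2 libraries it was 1.64%, 1.28% and 2.21%. For the lower genes it was 0.448%, 0.283% and 0.307% at S3 and 0.924%, 1.0% and 1.03% at S2. TMM-scaled values do not add up to the nominal total in each library, so these are not shares of reads. In whole seeds, a change in the share of a cell type and a change in RNA per cell cannot be told apart.

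Without S3 replicate 1 the test called 1991 genes (4.86%), of which 1350 were higher (3.3%) and 641 lower (1.57%). These included 887 of the 932 higher and 468 of the 660 lower genes. Leaving out S3 replicate 2 gave 888 genes, leaving out S3 replicate 3 gave 872 and leaving out S2 replicate 2 gave 859. It was 408 (1.09%), 210 higher (0.561%) and 198 lower (0.529%), when only the 6 libraries were fitted and 881 with the 15 libraries of 3mlpa. The calls below use a spread estimated over the 60 libraries, and for the main lists the count from the 6 libraries alone is given beside them.

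**Figure D1:**
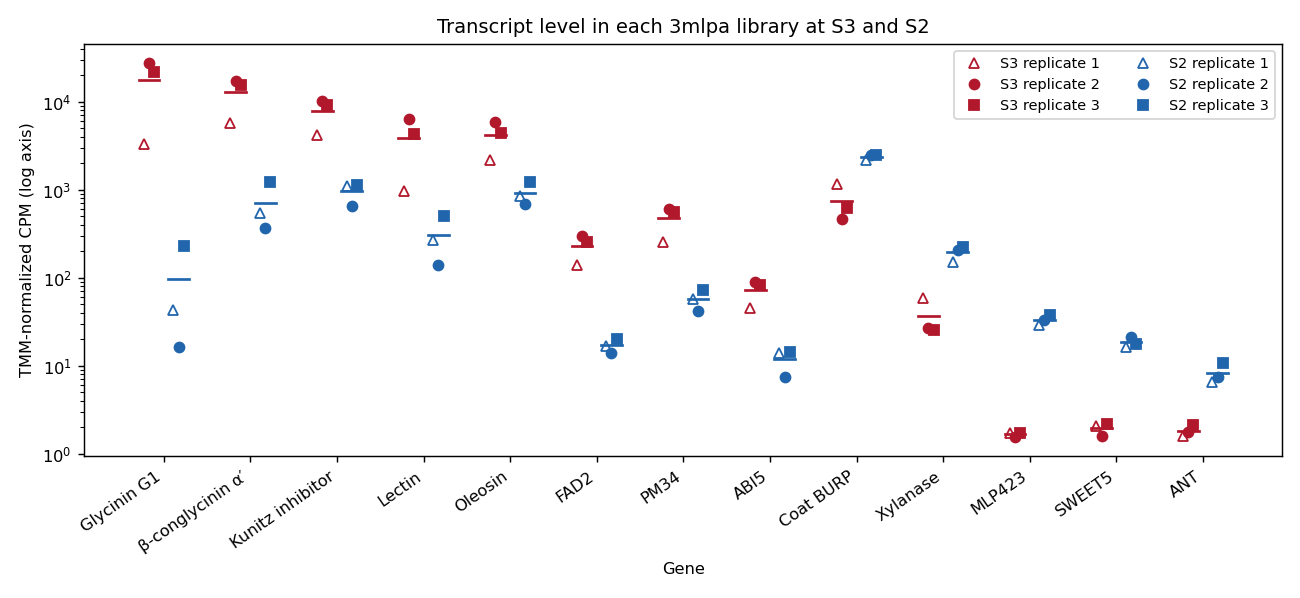
Level of 13 genes in each 3mlpa library, in TMM-normalized CPM on a log axis, with S3 in red left of S2 in blue, open triangles for replicate 1 and a bar at the mean of 3 libraries. S3 replicate 1 was the lowest S3 library for the 8 genes from glycinin G1 to ABI5 and still above all 3 S2 libraries, and the 5 genes on the right were lower in every S3 library.

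Functional descriptions were available for 12949 of the genes tested, those that the deposited tables annotate because they were listed in at least 1 comparison of the series. Among these, 7.14% were called higher and 5.03% lower, and the gene lists below are read beside those shares rather than beside the 2.3% and 1.63% of all genes tested. The shares of annotated genes were 9.5% higher and 4.67% lower without S3 replicate 1, and 1.78% higher and 1.7% lower when only the 6 libraries were fitted. Gene names are those of the best Arabidopsis or UniRef match, and reads of near-identical copies (glycinins, beta-conglycinins, lipoxygenases, oleosins, Kunitz inhibitors) may have been split between copies.

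**Figure D2:**
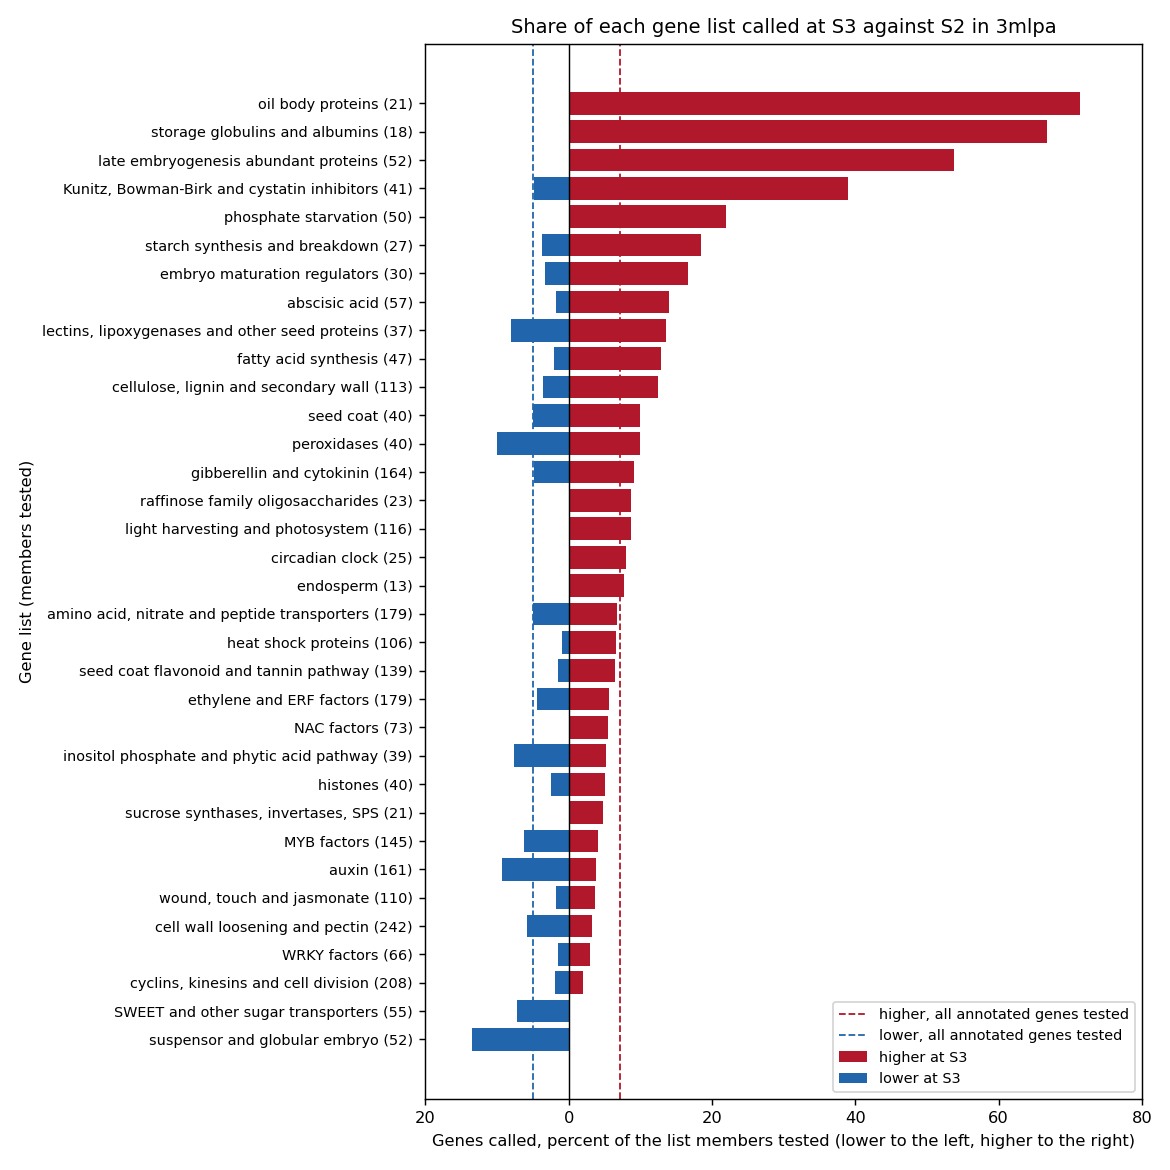
Share of the tested members of 34 gene lists that was called at S3 against S2 in 3mlpa, in percent, with lower genes to the left in blue and higher genes to the right in red (members tested in parentheses) and dashed lines at the shares of all annotated genes tested, 7.14% higher and 5.03% lower. The oil body, storage and LEA lists had 71.4%, 66.7% and 53.8% of their members called higher and 0 called lower, and the suspensor and globular embryo list had 13.5% called lower and 0 called higher.

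Storage globulin genes showed the steepest increase of the lists examined. Of 18 members tested, 12 were higher and 0 lower, with a median log2 fold change of 3.95, against -0.08 for all annotated genes tested. Glycinin G1 (Glyma.03G163500), an 11S globulin subunit, was at 3280, 27700 and 21900 CPM at S3 and at 43, 16.5 and 227 CPM at S2, a log2 fold change of 7.52 (SE 1.43; adjusted p = 0.000269). The groups did not overlap, and S3 replicate 1 was the lowest S3 library. Beta-conglycinin alpha prime (Glyma.10G246300), a 7S globulin subunit, was at 5710, 17300 and 15300 CPM at S3 and 539, 364 and 1230 CPM at S2 (log2 fold change 4.17 ± 0.92 SE, adjusted p = 0.00137). A second glycinin (Glyma.10G037100) was at 146, 3930 and 4630 CPM at S3 and 5.73, 0.204 and 21 CPM at S2 (log2 fold change 8.34 ± 1.78 SE). For these 3 genes S2 replicate 2 was the lowest and S2 replicate 3 the highest S2 library. The glycinin A3B4 gene (Glyma.13G123500) was at 37.4, 1470 and 949 CPM at S3 and 0.798, 0 and 2.64 CPM at S2, and glycinin G3 (Glyma.19G164900) at 3.98, 27.2 and 22.7 CPM at S3, against 4, 0 and 2 reads in the S2 libraries. Their log2 fold changes of 9.47 and 8.38 rest on few S2 reads.

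The sucrose-binding protein gene (Glyma.10G028300), whose product is related to the 7S globulins, was at 2870, 5850 and 6130 CPM at S3 and 369, 291 and 663 CPM at S2 (log2 fold change 3.49 ± 0.75 SE, adjusted p = 0.00104), and it was also called when only the 6 libraries were fitted. Glycinin G7 (Glyma.19G164800) was at 1.15, 6.04 and 4.1 CPM at S3 and 0.967, 0.688 and 0.66 CPM at S2 (log2 fold change 2.28, adjusted p = 0.000281). A basic 7S globulin gene (Glyma.03G239700) had 1.72, 417 and 174 CPM at S3 and 3.48, 0 and 0.538 CPM at S2 (log2 fold change 7.19, adjusted p = 0.000232). Its groups overlapped, since S3 replicate 1 was below S2 replicate 1. The summed level of the 18 genes was 12860 CPM in S3 replicate 1 and up to 59880 CPM in the other S3 libraries, against 836.7 to 2426 CPM at S2. All 12 calls were also made without S3 replicate 1, where the median log2 fold change of the list was 4.35, and 3 were made when only the 6 libraries were fitted.

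The list did not include 2 genes annotated as 2S albumins, which were among the 12 higher genes chosen for their change. Only called, annotated genes with a mean log2 CPM above 1 and no overlap between groups were eligible for that choice. The napin-type 2S albumin gene (Glyma.12G213600) was at 10, 728 and 456 CPM at S3 and 1.21, 0.56 and 6.72 CPM at S2 (log2 fold change 7.13 ± 1.22 SE, adjusted p = 9.1e-05). A second 2S albumin gene (Glyma.13G288100) was at 68.7, 1880 and 1220 CPM at S3 and 17.4, 6.37 and 38.2 CPM at S2 (log2 fold change 5.67 ± 0.98 SE). 2S albumins are small, sulfur-rich storage proteins. Both genes were also called in 3MWT between the same stages. Leginsulin (Glyma.13G194400), a small cysteine-rich albumin, was at 1030, 3900 and 8210 CPM at S3 and 461, 264 and 969 CPM at S2 (log2 fold change 2.96 ± 0.73 SE, adjusted p = 0.00388).

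Genes of cysteine protease-like seed proteins stood beside the storage genes. The gene of a 34 kDa maturing seed protein (Glyma.08G116300), a papain-type protein of protein storage vacuoles, was at 1970, 10500 and 8890 CPM at S3 and 52, 34.4 and 521 CPM at S2 (log2 fold change 5.14 ± 1.12 SE, adjusted p = 0.00121). Its copy (Glyma.05G158600) was at 31.5, 185 and 141 CPM at S3 and 1.02, 0.331 and 7.26 CPM at S2 (log2 fold change 5.37 ± 0.96 SE). Per length, in the deposited RPKM, the level of Glyma.08G116300 at S3 averaged 4480, against 2110 for glycinin G1, 6330 for beta-conglycinin alpha prime and 6410 for leginsulin. A gene of unknown function (Glyma.13G170900), at 4.25, 184 and 162 CPM at S3 and 0.0967, 0.0509 and 1.83 CPM at S2, had a log2 fold change of 7.45 (SE 1.15, adjusted p = 2.51e-05). A gene resembling a glucose and ribitol dehydrogenase (Glyma.07G258200) was at 3.78, 175 and 66.3 CPM at S3 and 2.08, 1.35 and 2.96 CPM at S2 (log2 fold change 5.26 ± 0.85 SE).

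Protease inhibitor genes were called in both directions. Of 41 Kunitz, Bowman-Birk and cystatin genes tested, 16 were higher and 2 lower, with a median log2 fold change of 1.13. The Kunitz trypsin inhibitor gene Glyma.08G341500 was at 4210, 10200 and 9230 CPM at S3 and 1110, 654 and 1140 CPM at S2 (log2 fold change 3.03 ± 0.57 SE, adjusted p = 0.000226). A KTI1 copy (Glyma.01G095000), far lower at S2, was at 17.3, 646 and 339 CPM at S3 and 2.68, 0.662 and 7.21 CPM at S2 (log2 fold change 6.56 ± 1.1 SE). Cystatins inhibit cysteine proteases, and the cystatin genes Glyma.11G253300 and Glyma.05G149800 had log2 fold changes of 4.11 and 1.2. The first was at 48.5, 79.4 and 88.3 CPM at S3 and 4.26, 0.688 and 7.56 CPM at S2, and the second at 89.1, 164 and 138 CPM at S3 and 61.1, 49.8 and 59.8 CPM at S2. In the other direction, the Kunitz gene Glyma.16G212500 was at 10.5, 3.65 and 4.14 CPM at S3 and 22.1, 21 and 23.5 CPM at S2 (log2 fold change -1.86 ± 0.33 SE, adjusted p = 0.000119). All 18 calls of the list were also made without S3 replicate 1, and 2 when only the 6 libraries were fitted.

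The list of lectins, lipoxygenases and other seed proteins was split, with 5 of 37 genes higher and 3 lower. The seed lectin gene (Glyma.02G012600), whose product binds sugars, was chosen for its level and was at 974, 6320 and 4250 CPM at S3 and 268, 141 and 504 CPM at S2 (log2 fold change 3.66 ± 0.74 SE, adjusted p = 0.000537). Lipoxygenases oxidize polyunsaturated fatty acids, and their copies went in opposite directions. Glyma.15G026300 was at 497, 7010 and 4340 CPM at S3 and 80.6, 43.5 and 217 CPM at S2 (log2 fold change 5.12 ± 0.95 SE), and Glyma.13G347600 at 87.8, 1700 and 1310 CPM at S3 and 17.1, 10.3 and 59.1 CPM at S2 (log2 fold change 5.16 ± 1.08 SE). Glyma.07G034800 was at 420, 180 and 286 CPM at S3 and 689, 678 and 717 CPM at S2 (log2 fold change -1.23 ± 0.33 SE, adjusted p = 0.00791). The urease genes Glyma.05G146000 and Glyma.08G103000, of the enzyme that splits urea, had log2 fold changes of 3.24 and 4.98 (adjusted p = 9.97e-05 and 0.00015). The first was at 404, 1270 and 1090 CPM at S3 and 87.7, 62.7 and 142 CPM at S2, and the second at 1.96, 32 and 27.8 CPM at S3 and 0.0726, 0.102 and 1.76 CPM at S2.

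Oil body genes were higher as a group, and fatty acid genes in part. Of 21 oil body genes tested, 15 were higher and 0 lower (median log2 fold change 2.34), and their called values ran from 1.69 to 3.78. The oleosin gene Glyma.19G063400, of the coat protein of oil bodies, was at 2160, 5930 and 4440 CPM at S3 and 848, 683 and 1210 CPM at S2 (log2 fold change 2.2 ± 0.57 SE, adjusted p = 0.00556). The oleosin genes Glyma.06G209900 and Glyma.14G125500 were at 2.77 and 1.21 CPM in S3 replicate 1 and at 8.51 to 33.7 CPM in the other S3 libraries, against 0.306 to 2.71 CPM at S2 (log2 fold changes 3.78 and 3.29). The steroleosin gene Glyma.08G010800, of a dehydrogenase bound to oil bodies, was at 43.1, 88.7 and 83 CPM at S3 and 13.5, 8.2 and 20.7 CPM at S2 (log2 fold change 2.34, adjusted p = 0.000231). A related gene (Glyma.05G203400) was at 22.8, 59 and 62.4 CPM at S3 and 6.53, 3.39 and 7.02 CPM at S2 (log2 fold change 3.09). The summed level of the list was 9129 to 18790 CPM at S3 and 1719 to 3192 CPM at S2. All 15 calls were also made without S3 replicate 1, and 4 when only the 6 libraries were fitted.

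Of 47 fatty acid synthesis genes, 6 were higher and 1 lower (median log2 fold change 0.51). FAD2 (Glyma.10G278000), the desaturase that makes linoleic from oleic acid, was at 140, 300 and 254 CPM at S3 and 16.7, 14.1 and 20.2 CPM at S2 (log2 fold change 3.77 ± 0.6 SE, adjusted p = 3.36e-05). TAG1 (Glyma.09G065300), the acyltransferase that completes triacylglycerol, was at 31, 35 and 31.8 CPM at S3 and 10.5, 9.76 and 12.2 CPM at S2 (log2 fold change 1.59 ± 0.23 SE, adjusted p = 1.06e-05). FAD8 (Glyma.14G194300), a desaturase that makes linolenic acid, was at 84.1, 58.5 and 72.7 CPM at S3 and 32.7, 33 and 34.5 CPM at S2 (log2 fold change 1.1). For TAG1, S3 replicate 1 lay with the other S3 libraries, and for FAD8 it was the highest of them. Of the 6 higher calls of the list, 4 were also made without S3 replicate 1, and the 1 lower call was not. FAD2, TAG1 and FAD8 were also called when only the 6 libraries were fitted. The acyl carrier protein gene Glyma.10G158500 (log2 fold change 1.02, adjusted p = 0.000589) was called with S3 replicate 1 and had a log2 fold change of 0.91 without it.

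LEA genes, whose products protect cells during drying, had calls in 1 direction. Of 52 tested, 28 were higher and 0 lower, with a median log2 fold change of 1.92 and called values from 1.07 to 5.5. The seed maturation protein PM34 gene (Glyma.10G155300) was at 254, 610 and 563 CPM at S3 and 57.8, 42.2 and 71.6 CPM at S2 (log2 fold change 3.06 ± 0.54 SE, adjusted p = 0.000111). PM36 (Glyma.17G032700) was at 32.7, 56.6 and 49.9 CPM at S3 and 17.2, 7.13 and 11.9 CPM at S2 (log2 fold change 1.94 ± 0.31 SE, adjusted p = 3.56e-05). The groups of both genes did not overlap. The dehydrin gene XERO1 (Glyma.08G048900) was at 5.7, 28.2 and 18.2 CPM at S3 and 2.59, 1.68 and 3.64 CPM at S2 (log2 fold change 2.72), and PM28 (Glyma.08G172800) at 2.02, 17.7 and 10.4 CPM at S3 and 0.774, 0.331 and 1.61 CPM at S2 (log2 fold change 3.46). The list sum was 1832 CPM in S3 replicate 1 and up to 4062 CPM at S3, against 806.6 to 1157 CPM at S2. All 28 calls were also made without S3 replicate 1, but groups did not overlap for 21 of them, and 3 were called when only the 6 libraries were fitted.

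**Figure D3:**
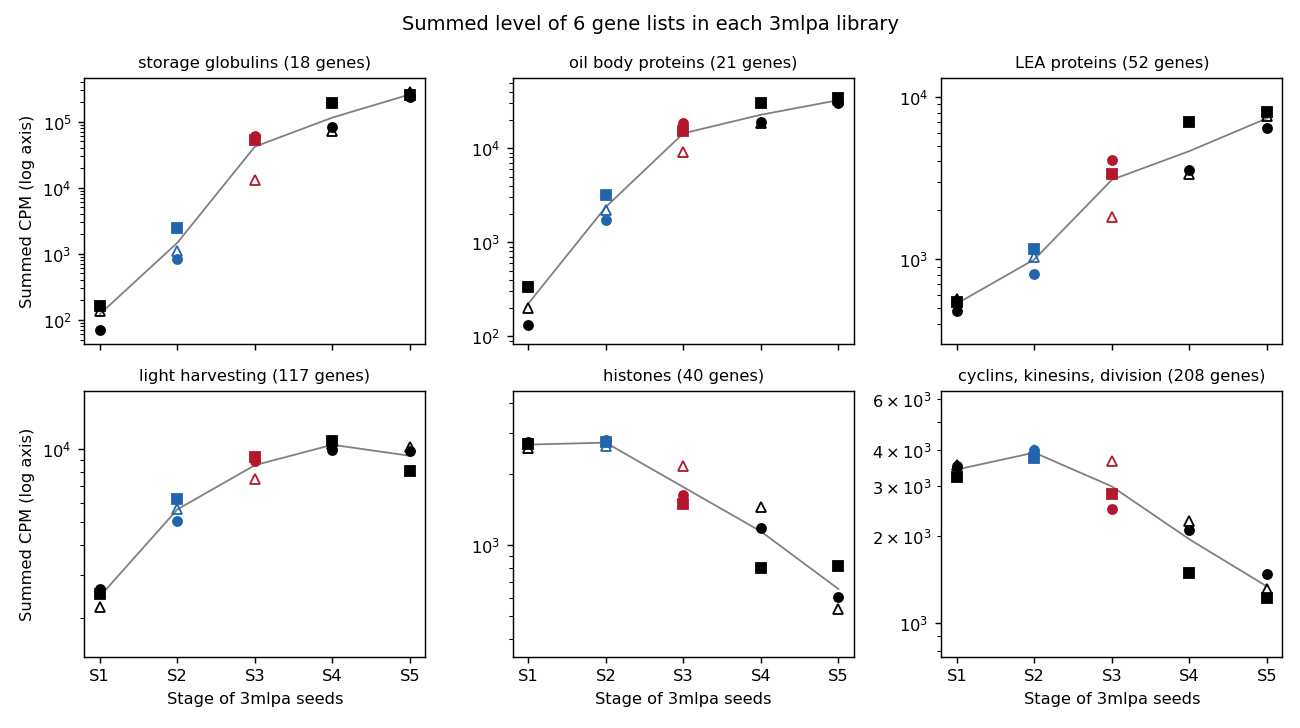
Summed CPM of 6 gene lists in each 3mlpa library from S1 to S5, on log axes, with S3 in red, S2 in blue, open triangles for replicate 1 and a line through the means of 3 libraries. The storage, oil body and LEA sums were higher at each later stage on average, with S3 replicate 1 below the other S3 libraries, and the histone and cell division sums were highest at S2 on average and lower at each later stage.

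Heat shock genes showed a smaller share of calls, with 7 of 106 higher and 1 lower (median log2 fold change 0.08). The small heat shock gene annotated as seed maturation protein PM31 (Glyma.02G076600), which is also on the LEA list, was at 0.742, 23.9 and 15 CPM at S3 and 0.363, 0.102 and 0.391 CPM at S2 (log2 fold change 5.5 ± 1.08 SE, adjusted p = 0.000408). The chaperone gene Hsp70b (Glyma.02G205600) was at 4.86, 19.9 and 16.5 CPM at S3 and 1.69, 1.53 and 1.78 CPM at S2 (log2 fold change 3.04). The DnaJ cochaperone gene Glyma.15G077700 was at 3.64, 11.1 and 10.1 CPM at S3 and 1.48, 0.586 and 0.66 CPM at S2 (log2 fold change 3.18).

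Most regulators of embryo maturation were not called, and the ABI5-type bZIP genes had the largest increases among them. Of 30 tested, 5 were higher and 1 lower, with a median log2 fold change of 0.16. Glyma.13G153200 and Glyma.10G071700 are matches of ABI5, a bZIP factor of abscisic acid signaling. The first was at 44.8, 88.5 and 82.2 CPM at S3 and 14, 7.51 and 14.4 CPM at S2 (log2 fold change 2.58 ± 0.5 SE, adjusted p = 0.000356), and the second at 30.9, 70 and 59.2 CPM at S3 and 11.8, 5.3 and 12.1 CPM at S2 (log2 fold change 2.45 ± 0.43 SE). Another ABI5 match (Glyma.19G194500) was at 4.66, 8.91 and 6.76 CPM at S3 and 3.39, 3.39 and 2.86 CPM at S2 (log2 fold change 1.08, adjusted p = 0.00151). The bZIP67 match Glyma.13G317000 was at 17.8, 18.7 and 22.4 CPM at S3 and 8.3, 8.48 and 8.61 CPM at S2 (log2 fold change 1.21 ± 0.19 SE, adjusted p = 2.74e-05). The WRI1 match Glyma.08G297000 was at 7.62, 5.71 and 8.2 CPM at S3 and 3.29, 3.29 and 2.23 CPM at S2 (log2 fold change 1.29 ± 0.29 SE, adjusted p = 0.00163). These groups did not overlap, and all 5 were also called without S3 replicate 1.

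The L1L match Glyma.20G000600, a CCAAT-binding subunit of early embryos, was the 1 lower member, at 3.2, 1.3 and 1.56 CPM at S3 and 5.76, 6.52 and 6.19 CPM at S2 (log2 fold change -1.6 ± 0.34 SE, adjusted p = 0.00101). The ABI3 matches Glyma.08G357600 and Glyma.18G176100 had log2 fold changes of 0.87 and 0.76, under the threshold of 1. Glyma.08G357600 was at 264, 349 and 389 CPM at S3 and 185, 166 and 196 CPM at S2, and it was called without S3 replicate 1. The FUS3 matches Glyma.19G100900 and Glyma.16G050300 had log2 fold changes of 0.08 (standard error 0.17) and 0.09 (standard error 0.19), with 17.8 to 21 and 9.85 to 10.5 CPM at S3 and 16.1 to 19.7 and 8.87 to 10 CPM at S2. Their groups overlapped. Glyma.17G005600 and Glyma.07G268100, annotated as LEC1-B and LEC1-A, had log2 fold changes of 0.25 and -0.14. The 2 LEC2 matches, Glyma.20G035700 and Glyma.20G035800, were at 0 reads in every S3 library and at 0 to 3 reads in each S2 library, too few to compare. The remaining tested regulators, WRI1, ABI4, AREB3, EEL, VAL1, AGL15, bZIP53, BBM and other L1L matches, were not called.

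Abscisic acid genes had 8 of 57 members higher and 1 lower (median log2 fold change 0.14). The lower gene, the CYP707A4 match Glyma.02G132200 of an enzyme that breaks down abscisic acid, had 1, 0 and 0 reads in the S3 libraries and 16, 24 and 24 reads in the S2 libraries, and it was also called when only the 6 libraries were fitted. The higher members included the ABI5 and bZIP67 genes above.

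Starch and sugar genes moved unevenly. Of 27 starch genes, 5 were higher and 1 lower. The beta-amylase gene Glyma.06G301500, of an abundant seed enzyme that cleaves starch chains, was at 677, 1800 and 1470 CPM at S3 and 178, 152 and 236 CPM at S2 (log2 fold change 2.8 ± 0.41 SE, adjusted p = 1.46e-05). The granule-bound starch synthase genes Glyma.10G172200, Glyma.07G049900 and Glyma.16G018500, which make amylose, had log2 fold changes of 1.01, 1.57 and 1.31. Glyma.10G172200 was at 239, 275 and 265 CPM at S3 and 131, 122 and 134 CPM at S2, with S3 replicate 1 close to the other S3 libraries. Of 23 genes for raffinose family sugars 2 were higher, and among them SIP1 (Glyma.06G179200), a raffinose synthase family gene, was at 11.6, 30.2 and 29.4 CPM at S3 and 11.3, 8.02 and 12.2 CPM at S2 (log2 fold change 1.18), with S3 replicate 1 within the S2 range. Of 21 genes of sucrose cleavage and synthesis, 1 was higher, the sucrose phosphate synthase gene SPS3F (Glyma.18G108100), at 0.337, 4.96 and 3.59 CPM at S3 and 0.0726, 0.102 and 0.293 CPM at S2 (log2 fold change 4.2 ± 0.7 SE, adjusted p = 6.42e-05).

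Sugar transporters had no higher member among 55 tested and 4 lower ones. SWEET5 (Glyma.19G009900), of a family that exports sugars across membranes, was at 2.09, 1.57 and 2.19 CPM at S3 and 16.5, 21.1 and 17.7 CPM at S2 (log2 fold change -3.25 ± 0.47 SE, adjusted p = 1.22e-05). SWEET12 (Glyma.06G166800), which in Arabidopsis feeds the seed from its coat, was at 7.59, 8.55 and 8.32 CPM at S3 and 27.4, 37.2 and 33.4 CPM at S2 (log2 fold change -2 ± 0.34 SE, adjusted p = 7.17e-05). The hexose transporter gene STP13 (Glyma.01G238800) was at 2.93, 2.97 and 3.4 CPM at S3 and 10, 10.1 and 10 CPM at S2 (log2 fold change -1.7 ± 0.39 SE). These 3 genes were also called without S3 replicate 1 and with only the 6 libraries, and their S3 libraries lay close together. The hexose transporter gene Glyma.04G102800 had 1, 0 and 0 reads at S3 and 18, 15 and 11 reads at S2. Without S3 replicate 1, 4 members of the list were called higher.

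Light harvesting and photosystem genes mostly had small positive values and few calls. Of 116 tested, 109 had a positive log2 fold change (median 0.56), and 10 were higher and 0 lower. LHCB1.4 (Glyma.16G165500), an antenna protein of photosystem II, was at 26.9, 18 and 21.2 CPM at S3 and 7.11, 4.25 and 7.7 CPM at S2 (log2 fold change 1.79 ± 0.33 SE, adjusted p = 0.000199). The Rubisco small subunit gene Glyma.19G046600 was at 33.9, 65.6 and 75.6 CPM at S3 and 18.7, 14.6 and 22.5 CPM at S2 (log2 fold change 1.65 ± 0.32 SE). All 10 calls were also made without S3 replicate 1, where 19 members were called. In 3MWT 33 members were called higher, and 8 of the 10 were among them.

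Phosphate starvation genes, of interest in a line that stores less phytic acid, had 11 of 50 members higher and 0 lower (median log2 fold change 0.47). The purple acid phosphatase gene PAP12 (Glyma.06G028200), of an enzyme that frees phosphate, was at 16.2, 51.7 and 36.8 CPM at S3 and 5.1, 1.66 and 2.1 CPM at S2 (log2 fold change 3.56 ± 0.57 SE, adjusted p = 3.36e-05). PAP23 (Glyma.19G026600) was at 8.2, 13.7 and 12.6 CPM at S3 and 5.49, 3.97 and 4.69 CPM at S2 (log2 fold change 1.28 ± 0.22 SE). PS3 (Glyma.09G223700), matched to a glycerol 3-phosphate transporter, was at 82.4, 123 and 126 CPM at S3 and 63.3, 43.5 and 44.3 CPM at S2 (log2 fold change 1.14). Groups did not overlap for any of the 11 calls, and all 11 were also made without S3 replicate 1. In 3MWT 3 members were called higher and 1 lower, and 2 of the 11 were among the higher. No member had a called difference of the step between the lines, so a difference between 3mlpa and 3MWT was not shown. When only the 6 libraries were fitted, 1 member was called.

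The inositol phosphate and phytic acid list had 2 higher and 3 lower of 39. The inositol pentakisphosphate 2-kinase gene Glyma.14G072200, of the enzyme that makes phytic acid in the last step, was at 31.4, 43.6 and 43.6 CPM at S3 and 15.4, 12.1 and 16 CPM at S2 (log2 fold change 1.45 ± 0.25 SE, adjusted p = 7.72e-05). VTC4 (Glyma.09G011100), an inositol monophosphatase match, was at 18.7, 20.4 and 21.6 CPM at S3 and 9.6, 6.85 and 7.75 CPM at S2 (log2 fold change 1.33 ± 0.28 SE, adjusted p = 0.001). The inositol trisphosphate 5-phosphatase match Glyma.10G028400, of an enzyme of phosphoinositide signaling, was at 4.62, 4.67 and 5 CPM at S3 and 9.38, 11.7 and 10.8 CPM at S2 (log2 fold change -1.15 ± 0.21 SE). These 3 genes were also called when only the 6 libraries were fitted.

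The named genes with large decreases at S3 were of varied function, and a pair of MLP423 matches, of the major latex protein family, was among them. Larger decreases than those given here were also called, down to a log2 fold change of -7.0. Glyma.09G040800 was at 1.72, 1.53 and 1.72 CPM at S3 and 29.2, 33.3 and 37.5 CPM at S2 (log2 fold change -4.33 ± 0.43 SE, adjusted p = 3.7e-08), and Glyma.15G146400 at 3.88, 3.29 and 2.62 CPM at S3 and 22.6, 28.5 and 30.8 CPM at S2 (log2 fold change -3.06 ± 0.35 SE). The replicates of each stage lay close together for these genes. RL6 (Glyma.11G117200), a small RAD-like MYB factor, was at 1.25, 0.685 and 0.469 CPM at S3 and 5.59, 6.93 and 7.29 CPM at S2 (log2 fold change -3.02 ± 0.32 SE, adjusted p = 1.6e-07). The Argonaute gene ZLL (Glyma.05G011300), which in Arabidopsis keeps the shoot meristem of the embryo, was at 0.776, 1.21 and 1.17 CPM at S3 and 4.98, 6.29 and 6.72 CPM at S2 (log2 fold change -2.51 ± 0.35 SE). The peroxidase gene RCI3 (Glyma.03G208100) was at 0.776, 0.62 and 0.898 CPM at S3 and 6.51, 5.81 and 6.7 CPM at S2 (log2 fold change -3.05 ± 0.64 SE). Peroxidases as a list had 4 of 40 members higher and 4 lower.

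Cell wall hydrolase genes were among the lower genes with high levels. The xylanase matches Glyma.20G134200 and Glyma.10G257000, of enzymes that cut xylan, were at 58.8, 26.6 and 25.7 CPM and 49.2, 34.4 and 31.7 CPM at S3, and at 152, 209 and 226 CPM and 162, 235 and 257 CPM at S2 (log2 fold changes -2.4 and -2.5, standard errors 0.52 and 0.53). The seed coat BURP gene Glyma.07G176700, the most abundant of the lower genes, was at 1150, 466 and 622 CPM at S3 and 2180, 2460 and 2490 CPM at S2 (log2 fold change -1.67 ± 0.39 SE, adjusted p = 0.00212). The aspartic protease gene Glyma.02G213000 was at 334, 188 and 228 CPM at S3 and 636, 678 and 721 CPM at S2 (log2 fold change -1.44). The thiamine thiazole synthase gene THI1 (Glyma.12G135000) was at 70.2, 43 and 42.3 CPM at S3 and 117, 122 and 134 CPM at S2 (log2 fold change -1.26 ± 0.24 SE). For each of these genes the stages did not overlap, and S3 replicate 1 was the S3 library closest to S2. A further MLP423 match (Glyma.02G032300) was at 105, 72.4 and 88.6 CPM at S3 and 233, 247 and 230 CPM at S2 (log2 fold change -1.42, adjusted p = 0.00741), and its adjusted p was 0.0107 without S3 replicate 1.

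Genes of the early embryo had lower calls and no higher ones. Of 52 suspensor and globular embryo genes, 7 were lower and 0 higher (median log2 fold change -0.54), and 5 of the 7 were also called lower without S3 replicate 1, where 1 member was called higher. ANT (Glyma.U037700), an AP2 factor that promotes organ growth, was at 1.59, 1.76 and 2.11 CPM at S3 and 6.55, 7.51 and 10.6 CPM at S2 (log2 fold change -2.18 ± 0.35 SE, adjusted p = 4.58e-05). A second ANT match (Glyma.06G049200) was at 3.54, 2.94 and 2.85 CPM at S3 and 7.11, 6.95 and 8.39 CPM at S2 (log2 fold change -1.26 ± 0.22 SE). WOX1 (Glyma.07G219400), a WUSCHEL-related homeobox gene, was at 10, 6.1 and 7.03 CPM at S3 and 14.3, 18.5 and 16.7 CPM at S2 (log2 fold change -1.1), and ATML1 (Glyma.11G003400), a gene of epidermal identity, at 1.42, 2.09 and 1.84 CPM at S3 and 4.23, 4.71 and 5.89 CPM at S2 (log2 fold change -1.47). The groups of these 4 genes did not overlap.

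Histone and cell division genes mostly had small negative values and few calls. Of 208 cyclin, kinesin and cell division genes, 173 had a negative log2 fold change (median -0.47), and 4 were called lower and 4 higher. Of 40 histone genes, 36 had a negative log2 fold change (median -0.72), and 1 was called lower and 2 higher. The D-type cyclin gene CYCD3;2 (Glyma.11G052500), which drives entry into the cell cycle, was at 6.38, 4.53 and 5.08 CPM at S3 and 12.5, 13 and 12.7 CPM at S2 (log2 fold change -1.25 ± 0.27 SE, adjusted p = 0.000967). Of 2 genes matched to the same cyclin, CYCD6;1, Glyma.12G199300 was lower (log2 fold change -1.18, adjusted p = 0.000193) and Glyma.15G066200 higher (log2 fold change 1.64, adjusted p = 0.000295). The histone H2A gene Glyma.12G215600 was at 5.84, 5.19 and 2.58 CPM at S3 and 10.3, 14.2 and 15.6 CPM at S2 (log2 fold change -1.55). The histone sum was 2169 CPM in S3 replicate 1 and 1492 to 1633 CPM in the other S3 libraries, against 2632 to 2803 CPM at S2, and the cell division sum was 2478 to 3665 CPM at S3 and 3757 to 3988 CPM at S2. Without S3 replicate 1, 11 cell division genes were called lower and 4 higher, and 8 histone genes were called lower and 2 higher.

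Auxin genes had 15 of 161 members lower and 6 higher (median log2 fold change -0.24), and 9 of the 15 were also called without S3 replicate 1, where 12 were lower and 14 higher. The gene AUX1 (Glyma.01G114000), of a carrier that brings auxin into cells, was at 1.08, 1.17 and 0.781 CPM at S3 and 2.76, 3.46 and 3.13 CPM at S2 (log2 fold change -1.61 ± 0.27 SE). Its groups did not overlap, and it was also called without S3 replicate 1 and when only the 6 libraries were fitted.

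Of 242 genes of wall loosening and pectin, 14 were lower and 8 higher (median log2 fold change -0.33). Among the lower were the pectin methylesterase inhibitor matches Glyma.15G181600 and Glyma.09G072700 (log2 fold changes -2.09 and -1.64, adjusted p = 2.71e-05 and 4.14e-05) and the polygalacturonase gene PG2 (Glyma.06G183400, log2 fold change -1.03). Of 113 genes of cellulose, lignin and the secondary wall, 14 were higher and 4 lower (median log2 fold change 0.27). CSLB1 (Glyma.12G191800), a cellulose synthase-like gene, was at 10.6, 12.7 and 14.5 CPM at S3 and 5.13, 4.05 and 4.52 CPM at S2 (log2 fold change 1.46 ± 0.21 SE, adjusted p = 9.39e-06). The lignin gene CAD1 (Glyma.13G255300), of cinnamyl alcohol dehydrogenase, was at 6.38, 6.66 and 6.6 CPM at S3 and 3.31, 2.98 and 3.25 CPM at S2 (log2 fold change 1.04 ± 0.19 SE). The xylan gene FRA8 (Glyma.12G178100) was lower (log2 fold change -1.64 ± 0.3 SE), at 1.42, 1.24 and 1.68 CPM at S3 and 4.28, 4.46 and 4.79 CPM at S2. Of the 14 higher and 4 lower genes, 10 and 4 were also called without S3 replicate 1.

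Markers of the seed coat and endosperm were read because whole seeds were used. Of 40 seed coat genes, 4 were higher and 2 lower (SWEET12 and the BURP gene above), and the summed level of the list was 1872 to 2644 CPM at S3 and 3747 to 4231 CPM at S2. The BURP gene alone made up 466 to 1150 CPM of it at S3 and 2180 to 2490 CPM at S2. Of 13 endosperm genes, 1 was higher and 0 lower, with summed levels of 150.1 to 165 CPM at S3 and 156.2 to 172.3 CPM at S2. The seed coat sum was thus lower at S3 mostly through the BURP gene, and the median log2 fold change of the seed coat list was -0.2. The part of the seed coat in the other changes was not tested. Of 139 flavonoid and tannin genes, 9 were higher and 2 lower. The isoflavonoid gene CYP93D1 (Glyma.13G173500), matched to a hydroxyisoflavanone synthase, was at 14.9, 33.2 and 31.5 CPM at S3 and 5.27, 5.38 and 7.19 CPM at S2 (log2 fold change 2.16 ± 0.31 SE, adjusted p = 1.22e-05), and Glyma.18G285800, annotated as a deoxychalcone synthase, was at 5.09, 4.08 and 10.2 CPM at S3 and 0.895, 1.15 and 0.88 CPM at S2 (log2 fold change 2.72).

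Among other hormone genes, gibberellin and cytokinin genes had 15 of 164 higher and 8 lower, and ethylene and ERF genes 10 of 179 higher and 8 lower. KAO2 (Glyma.15G135200), an oxidase of gibberellin synthesis, was at 17.3, 21.4 and 25.6 CPM at S3 and 5.27, 4.84 and 6.7 CPM at S2 (log2 fold change 1.93 ± 0.24 SE, adjusted p = 1.5e-06). CGA1 (Glyma.15G169300), a GATA factor that answers to cytokinin and promotes greening, was at 11.5, 10.5 and 13.6 CPM at S3 and 1.72, 2.27 and 2.45 CPM at S2 (log2 fold change 2.47 ± 0.37 SE). Of 2 gibberellin-regulated family genes, Glyma.08G291900 was higher (120, 354 and 276 CPM at S3 and 39.3, 42.2 and 52.1 CPM at S2, log2 fold change 2.49) and Glyma.03G131700 lower (39.4, 21.5 and 30 CPM at S3 and 84.8, 80 and 84.6 CPM at S2, log2 fold change -1.46). The ethylene-forming ACC oxidase-like gene Glyma.10G007500 was at 20.3, 26.8 and 24.5 CPM at S3 and 8.3, 7.92 and 8.88 CPM at S2 (log2 fold change 1.51 ± 0.19 SE, adjusted p = 2.44e-06).

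The remaining lists had shares of calls near those of all annotated genes or below them. MYB genes had 6 of 145 higher and 9 lower, NAC genes 4 of 73 higher and 0 lower, WRKY genes 2 of 66 higher and 1 lower, and clock genes 2 of 25 higher and 0 lower. Transporters of amino acids, nitrate and peptides had 12 of 179 higher and 9 lower, and wound, touch and jasmonate genes 4 of 110 higher and 2 lower. The NAC gene XND1 (Glyma.06G154400), which in Arabidopsis restrains xylem differentiation, was at 0.27, 11.2 and 3.75 CPM at S3 and 0.193, 0.0764 and 0.391 CPM at S2 (log2 fold change 4.49 ± 0.77 SE, adjusted p = 8.58e-05), with S3 replicate 1 within the S2 range. The MYB gene Glyma.05G013000 was at 7.69, 9.33 and 11.1 CPM at S3 and 2.2, 2.04 and 2.4 CPM at S2 (log2 fold change 2.08 ± 0.35 SE). The wound-responsive family gene Glyma.06G303000 was at 24.8, 29.4 and 28.5 CPM at S3 and 11.3, 8.02 and 10.3 CPM at S2 (log2 fold change 1.48 ± 0.23 SE).

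The direction of the S3 against S2 step was followed over the other stages of 3mlpa, in libraries that the step did not use. In S4 against S1, 25.9% of all genes tested were called, 11.5% higher and 14.3% lower. Among annotated genes tested, which include 925 of the 932 higher and 651 of the 660 lower genes, 23.6% were higher and 31.6% lower. In S4 against S1, 868 of the 932 higher genes (93.1%) were called higher and 635 of the 660 lower genes (96.2%) were called lower. These are 18.6% of the 4675 genes higher and 10.9% of the 5809 genes lower in S4 against S1, and 2 genes were called in the opposite direction. The highest mean of the 5 stages was at S5 for 732 of the 932 higher genes, at S4 for 133 and at S3 for 66. The lowest mean was at S5 for 481 of the 660 lower genes, at S4 for 114 and at S3 for 65. The mean RPKM of glycinin G1 (Glyma.03G163500) was 0.197, 13.9, 2110, 5200 and 9920 from S1 to S5, and that of the seed coat BURP gene (Glyma.07G176700) was 4210, 2040, 546, 366 and 66.9. The oleosin Glyma.19G063400 was at 44.1, 484, 1830, 2000 and 2310 RPKM. Of the regulators, ABI3 (Glyma.08G357600) was at 26.3, 64.7, 98.6, 112 and 111 RPKM and LEC1-A (Glyma.07G268100) at 36.5, 81.9, 62.9, 37.6 and 19.7 RPKM. The RPKM values were not TMM-scaled, so their trend between stages can differ from that in TMM-normalized CPM. In 3mlpa, Glyma.14G223700 averaged 53.6 CPM at S2 and 76.3 CPM at S5, but 15.3 and 12.1 RPKM. A level RPKM from S4 to S5, as for ABI3, is thus not evidence of a plateau.

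The same step was measured in 3MWT, which lacks the mutations. In 3MWT 1238 genes (3.06%) were called at S3 against S2, 804 higher (1.98%) and 434 lower (1.07%). Among annotated genes tested the shares were 6.06% higher and 3.27% lower. Of the 932 genes higher in 3mlpa, 411 were also higher in 3MWT (44.1% of the 3mlpa list and 51.1% of the 3MWT list), and of the 660 lower genes 185 were also lower (28% and 42.6%). The count over both directions was 283 and 166 without 3MWT S2 replicate 2 and 3, 226 without 3MWT S3 replicate 3 and 395 without 3mlpa S2 replicate 2, against 596 with all libraries, and 177 when only the libraries of the groups compared were fitted. No gene was called in opposite directions, and 98.0% of the higher and 97.0% of the lower genes had the same sign in 3MWT, with a median log2 fold change of 1.3 and -1.02 there. Since the genes were chosen for their size in 3mlpa, the smaller medians in 3MWT are a description and no test.

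**Figure D4:**
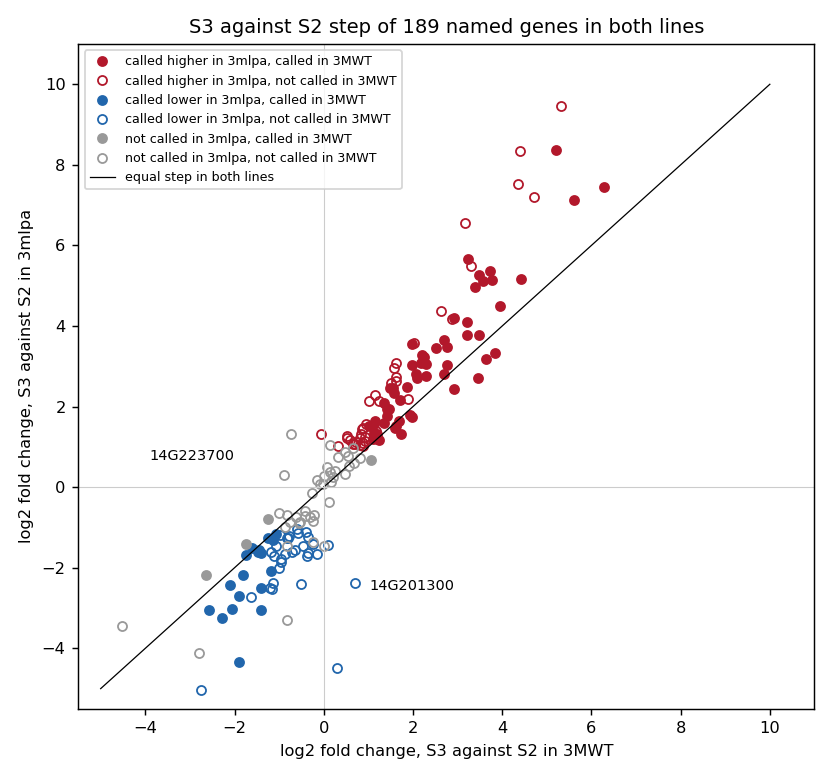
Log2 fold change at S3 against S2 of the 189 named genes in 3mlpa (vertical axis) and in 3MWT (horizontal axis), in red, blue and gray by the call in 3mlpa, filled where the gene was called in 3MWT, with a line at equal values. Most points lay in the quadrants of equal sign, and the 2 labelled genes, Glyma.14G201300 and Glyma.14G223700, had opposite signs in the lines and were the 2 with a called difference.

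The difference of the step between the lines was tested itself, as an interaction of stage and line. It was called for 2 genes of 40517 (0.00494%), 1 in each direction (0.00247%), with 3661 genes at an unadjusted p under 0.05, and DESeq2 called 5, with 3880 at an unadjusted p under 0.05. The gene matched to the transcription factor bHLH93 (Glyma.14G201300) was at 0.843, 0.489 and 0.547 CPM at S3 and 3.14, 3.72 and 2.93 CPM at S2 in 3mlpa, a log2 fold change of -2.37 (SE 0.39, adjusted p = 5.16e-05). In 3MWT it was at 3.29, 3.49 and 3.23 CPM at S3 and 2.63, 1.39 and 2.16 CPM at S2 (log2 fold change 0.7), and the 3mlpa step minus the 3MWT step was -3.07 (standard error 0.52, adjusted p = 0.01 and just under the threshold). The gene of a RAD3-like helicase (Glyma.14G223700), of a family that unwinds DNA, was at 54, 73.8 and 71 CPM at S3 and 52.4, 55 and 53.3 CPM at S2 in 3mlpa (log2 fold change 0.31, adjusted p = 0.0697). In 3MWT it was at 13.1, 12.9 and 8.18 CPM at S3 and 18.7, 22.1 and 22.3 CPM at S2 (log2 fold change -0.88), a difference of 1.19 (standard error 0.17, adjusted p = 0.000742). Over 17 alternative settings the difference was called in 4 for Glyma.14G201300 (adjusted p 0.000388 to 0.133) and in 16 for Glyma.14G223700 (adjusted p 4.63e-08 to 0.147), with the same sign in each. The storage, oil body, LEA, inhibitor and phosphate starvation lists held no gene with a called difference. In simulated counts the test of the difference found 22% of 2-fold and 72% of 3-fold changes at these thresholds. Few calls thus do not show that the steps of both lines were equal. The count of called differences was 8 without 3mlpa S3 replicate 1 and 0 when only the 12 libraries compared were fitted.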

How the data were processed

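RNA was extracted from whole developing seeds, sequenced as single-end reads, aligned with STAR and counted per gene with featureCounts on the Wm82.a2.v1 gene models by the authors, who deposited raw read counts and RPKM values for the 60 libraries. The deposited counts were the input of every test. The deposited RPKM values, not normalized further, served for comparing levels between genes per length and for the stage profiles of some named genes. Fold change, log2 and p-value columns of the authors' own comparisons were not used. Genes with low counts were removed by filterByExpr, libraries were scaled by TMM, and 20 group means (line by stage) were fitted to 60 libraries with the quasi-likelihood test of edgeR 4.0.16 in R 4.3.3, with Benjamini-Hochberg adjustment over all 40517 genes. The standard error of a log2 fold change was taken from the F statistic. Calls needed a log2 fold change beyond 1 in either direction and an adjusted p under 0.01. The test was tried on simulated counts first. Named genes were the 12 largest called changes per direction, the 8 most abundant, up to 4 per list, up to 6 per direction for the difference between lines, the regulators and the mutated genes. The 12 per direction were taken among annotated genes with a mean log2 CPM above 1 over the 6 libraries and groups that did not overlap. For these genes the lack of overlap was thus a condition of choice and not a result. Members and lists were chosen with earlier results of these data known. Alternatives were DESeq2 1.42.0, RLE scaling, no count filter, a replicate block, fewer libraries, a looser threshold and leaving out each replicate. Gene coordinates and sequences were not used here. A result on a withheld item is not reported here.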

Additional observations from a re-analysis of the deposited data

Results flagged for a closer look

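The step from S2 to S3 differed between the lines for 2 genes by the test of the difference itself, with an adjusted p of 0.01, just under the threshold, for Glyma.14G201300 and of 0.000742 for Glyma.14G223700. The first was called in 4 and the second in 16 of 17 alternative settings, and neither when only the libraries compared were fitted. For the bHLH93 match Glyma.14G201300 the log2 fold change of 3mlpa minus that of 3MWT was -3.07, with lower values in all 3 S3 libraries of 3mlpa and higher values in all 3 S3 libraries of 3MWT than in the S2 libraries of the same line. For the RAD3-like helicase gene Glyma.14G223700 the difference was 1.19, and the gene was at 52.4 to 73.8 CPM in the 3mlpa libraries and at 8.18 to 22.3 CPM in the 3MWT libraries of these stages.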

How the results depend on the processing

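No count over all genes and no called named gene changed its direction under an alternative, but the split of calls within lists did without S3 replicate 1, with 14 auxin genes higher and 12 lower (6 and 15 with it), 2 histone genes higher and 8 lower (2 and 1) and 4 sugar transporter genes higher and 4 lower (0 and 4). The count of genes called at S3 against S2 in 3mlpa was 408 with only the libraries compared, 881 with only the 3mlpa libraries and 2423 at an adjusted p under 0.05, and 859 to 1991 when 1 library was left out. The count called the same way in S4 against S1 was 399 with only the libraries compared and 871 with only the 3mlpa libraries, and 827 to 1728 when 1 library was left out. The count shared with 3MWT was 177 with only the libraries compared and 1080 at an adjusted p under 0.05, and 166 to 680 when 1 library was left out. The difference of the step gave 1 gene with RLE scaling, 5 with DESeq2, 0 with only the libraries compared, and 1 to 8 when 1 library was left out. Of 189 named genes 83 had the same call under every alternative. With only the libraries compared, 88 had a weaker result and 92 the same. The replicate block gave 1528 genes, 1456 shared with S4 against S1, 564 shared with 3MWT and 2 for the difference. Deviations from the group mean in same-numbered S3 and S2 libraries of 3mlpa correlated at r = -0.04, -0.23 and 0.30. Libraries of different number correlated at -0.36 to 0.4. With so few libraries these values cannot show or exclude a pairing, and the labels do not state one. The median log2 fold change of the storage genes was 4.35 without S3 replicate 1 and 3.95 with it, and genes with few S2 reads have uncertain fold changes.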
